A study of Saccharomyces cerevisiae with 4 samples.

Results

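The outer arms of chromosomes X and XI of budding yeast are 4 stretches of HindIII restriction fragments, the units between which Hi-C counts joined DNA ends. They were chosen by their rows in the contact map and not by a contact value, though earlier results of these data were known. The X left stretch had 61 fragments, the X right stretch 41, the XI left stretch 89 and the XI right stretch 21. Together they made 212 of the 4382 fragments that could be matched between the maps, or 4.84%, and 209 of them passed a filter that left out the lowest 2% of fragments by total contacts. The cells were strain BY4742, grown in rich medium (YPD) from a single colony at 25 °C. At mid-log phase the culture was divided. The 25 °C aliquot was fixed in 3% formaldehyde at 25 °C, and the 37 °C aliquot received an equal volume of fresh YPD warmed to 49 °C, was kept at 37 °C for 15 minutes and was fixed in 3% formaldehyde at 37 °C. Heat, fresh medium and the temperature of fixation therefore changed together and cannot be told apart.

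In yeast nuclei the centromeres are held together near the spindle pole body, the telomeres lie at the nuclear envelope, and each arm is tethered at both ends. This layout, known as the Rabl arrangement, brings together loci that lie at like distances from their centromeres, and brings the ends of arms of like length near each other. A Hi-C map shows it as contacts between chromosomes that depend on how far each locus lies from its centromere and on how long its arm is.

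Each temperature had 2 biological replicates, which the authors combined into 1 map, so no replicate error could be computed and no test between temperatures was made. Contacts numbered 5920062 at 25 °C and 1937970 at 37 °C. Of these, 5209958 and 1570649 joined kept fragments of different chromosomes, 3.32 times as many at 25 °C. Results are given as a contact ratio, the observed contacts between chromosomes divided by the number expected from the fragments' own totals, so that 1 is the level expected from those totals alone. Over all partners of a stretch the expected contacts add up to the observed ones at each temperature. A higher ratio with some partners therefore has to go with a lower ratio with others. Intervals in parentheses are exact 95% intervals (Poisson for a ratio, binomial for a log2 ratio of 37 °C over 25 °C), which cover counting error only. A total of 579 fragments, 13.5% of those kept, had more than 2 times the median ratio of fitted totals at 37 °C over 25 °C and are called raised fragments. They were 4 of 60 in X left, 3 of 40 in X right, 10 of 89 in XI left and 2 of 20 in XI right, and the main differences between temperatures are given with and without them. Values without raised fragments leave them out of the stretches and of all partners, with expected contacts fitted again.

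The 4 stretches began at like distances from their centromeres but sat on arms of different length. X left lay 74 to 134 fragments from the centromere on an arm of 144 fragments. X right lay 63 to 103 fragments out on an arm of 124. XI left lay 74 to 162 fragments out on an arm of 169, and XI right lay 60 to 80 fragments out on the shortest of these arms, of 95 fragments. The nearest fragment to a chromosome end was 10 fragments from it in X left, 21 in X right, 7 in XI left and 15 in XI right. The deposited maps carry no coordinates, so positions were interpolated from the recovered chromosome ends and centromeres on the R64 gene table. On this scale X left spanned about 30.3 to 212 kb and X right about 593 to 692 kb of chromosome X, and XI left spanned about 18.2 to 247 kb and XI right about 581 to 628 kb of chromosome XI. The recovered centromeres lay 36.6 kb from the annotated position on chromosome X and 15.4 kb on chromosome XI, or 13.2 and 6.15 fragments of mean length. The fragment distances given here, on X above all, and the comparisons at the same distance may be shifted by as much. The stretches covered 101, 56, 115 and 23 annotated genes in that order, with 4, 1, 7 and 0 tRNA genes. Median total contacts per fragment were alike, at 2763, 2750, 2831 and 2678 in the 25 °C map and 689, 679, 773 and 679 in the 37 °C map.

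Partners of X left changed steadily with the partner's distance from its own centromere. At 25 °C the contact ratio of X left was 0.336 (0.325 to 0.348) with centromere regions, defined as 7 fragments to each side of a centromere. It was 0.535 with fragments 8 to 19 from the centromere, 0.844 with those 20 to 49 away and 1.12 with those 50 to 99 away. It was 1.22 with fragments 100 or more but less than 200 away and highest, 1.26 (1.24 to 1.28), with those 200 or more away. With chromosome ends, the outermost 11 fragments of each arm, the ratio was 1.14 (1.12 to 1.16). X left was thus depleted of centromere partners and enriched in partners far out on other arms, and its 25 °C contacts with centromere regions numbered 3328 where 9904 were expected.

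XI left, the longest of the 4 stretches, had nearly the same profile. Its contact ratio at 25 °C was 0.334 (0.325 to 0.343) with centromere regions, 0.537 at 8 to 19 fragments, 0.822 at 20 to 49, 1.10 at 50 to 99 and 1.23 at 100 to 200. It reached 1.29 (1.27 to 1.30) with fragments 200 or more from the centromere. The 25 °C intervals of X left and XI left overlapped with centromere regions and in every distance class but that of 20 to 49 fragments. With chromosome ends XI left had 1.20 (1.18 to 1.22), above the interval of X left.

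The right arms had partners nearer to centromeres. X right had a ratio of 0.488 (0.472 to 0.505) with centromere regions at 25 °C and 0.779 at 8 to 19 fragments. It was highest at 50 to 99 fragments, with 1.12 (1.11 to 1.14), and was 0.963 (0.943 to 0.982) at 200 or more fragments and 1.09 (1.06 to 1.11) with chromosome ends. XI right had 0.605 (0.579 to 0.632) with centromere regions and 0.949 at 8 to 19 fragments, and among distance classes it was highest at 20 to 49 fragments, with 1.14 (1.12 to 1.16). Its ratio was 0.905 at 100 to 200 and 0.807 (0.781 to 0.833) at 200 or more fragments. The highest ratio of any stretch with any class was that of XI right with chromosome ends, 1.57 (1.52 to 1.61), from 4701 contacts where 2996 were expected. XI right therefore combined the fewest contacts with the far parts of long arms and the most with chromosome ends, while the left arms had the most contacts with the far parts.

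**Figure D1:**
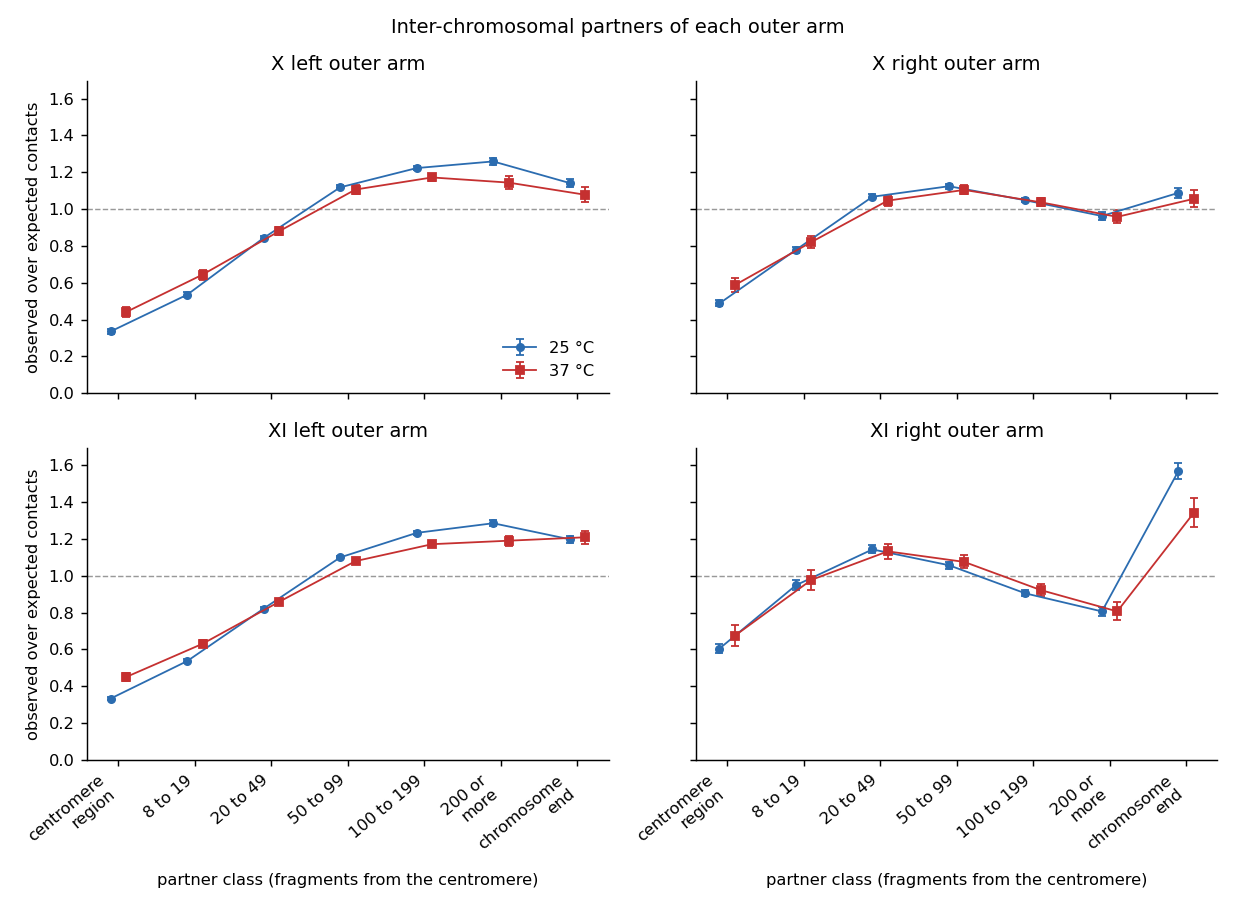
Contact ratio (observed over expected contacts between chromosomes, vertical axis) of each outer arm with 7 classes of partner fragments (horizontal axis, distance from the partner's centromere in fragments), at 25 °C (circles) and 37 °C (squares) with exact 95% Poisson intervals. X left and XI left climb from 0.336 and 0.334 with centromere regions to 1.26 and 1.29 at 200 or more fragments, while XI right peaks at chromosome ends with 1.57.

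At 37 °C every stretch had a higher ratio with centromere regions than at 25 °C. X left went from 0.336 to 0.441, a log2 ratio of 0.39 (0.29 to 0.49), on 3328 and 1011 contacts. XI left went from 0.334 to 0.450, a log2 ratio of 0.43 (0.35 to 0.51), on 4976 and 1860 contacts. X right went from 0.488 to 0.587, a log2 ratio of 0.27 (0.17 to 0.37), and XI right from 0.605 to 0.674, a log2 ratio of 0.16 (0.022 to 0.29). The differences ran opposite to the 25 °C levels, with the stretches that had the lowest ratio at 25 °C showing the highest log2 ratios. Without raised fragments the log2 ratios were 0.28 (0.16 to 0.41) for X left, 0.19 (0.065 to 0.31) for X right, 0.31 (0.21 to 0.41) for XI left and 0.084 (-0.083 to 0.25) for XI right. With only the raised fragments of the stretch itself left out and all partners kept, the log2 ratios were 0.38 (0.27 to 0.50), 0.26 (0.15 to 0.37), 0.38 (0.29 to 0.47) and 0.13 (-0.023 to 0.28) in the same order. With each pair of fragments capped at 5 contacts they were 0.26, 0.13, 0.30 and 0.017 in the same order, so the XI right value depended on these settings. The cap was the same in both maps although the 25 °C map is deeper, so it does not treat the temperatures alike.

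Next to the centromere regions the left arms again had the larger differences. With partners 8 to 19 fragments from a centromere, X left went from 0.535 to 0.644 (log2 ratio 0.27, 0.20 to 0.34) and XI left from 0.537 to 0.631 (0.23, 0.18 to 0.29). X right went from 0.779 to 0.821 (0.076, 0.0073 to 0.14) and XI right from 0.949 to 0.977 (0.043, -0.049 to 0.13). Without raised fragments the log2 ratios of this class were 0.19 (0.11 to 0.28) in X left, 0.13 (0.060 to 0.20) in XI left, 0.034 (-0.052 to 0.12) in X right and 0.081 (-0.030 to 0.19) in XI right, so that the X right interval then included 0. Far partners moved the other way in the left arms, where a rise with some partners has to be met by a fall with others. With partners 200 or more fragments away X left went from 1.26 to 1.14, a log2 ratio of -0.14 (-0.19 to -0.090), and XI left from 1.29 to 1.19, a log2 ratio of -0.11 (-0.15 to -0.074). Without raised fragments these were -0.081 (-0.14 to -0.021) and -0.055 (-0.10 to -0.0078). In the right arms the ratios of this class were 0.963 and 0.958 in X right and 0.807 at both temperatures in XI right, with log2 intervals of -0.068 to 0.054 and -0.097 to 0.097.

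Chromosome ends showed a difference in XI right and little in XI left. The ratio of XI right with chromosome ends was 1.57 at 25 °C and 1.34 (1.26 to 1.42) at 37 °C, a log2 ratio of -0.23 (-0.32 to -0.13). Without raised fragments this log2 ratio was -0.12 (-0.24 to -0.0086), and over the fragments below the median of the ratio of fitted totals it was -0.061 (-0.29 to 0.16). X left had 1.14 and 1.08 (log2 ratio -0.083, -0.15 to -0.019), which was -0.035 (-0.11 to 0.041) without raised fragments, with a positive log2 ratio of 0.12 (-0.023 to 0.26) over the fragments below that median. XI left had 1.20 and 1.21, and X right had 1.09 and 1.06. In 25 of the 28 values of the 4 stretches with 7 partner classes, the ratio at 37 °C lay nearer to 1 than the ratio at 25 °C, on the log scale. By partner chromosome this held for 33 of 60 values, and by partner arm relative to its distance classes, a scale described with the partner arms, for 55 of 120. The class and chromosome values of a stretch are tied through its total contacts, so they are not independent. These counts keep raised fragments and are not given here for other arms. Without raised fragments most class values again moved nearer to 1, but more of them moved away. Among these were XI left at 50 to 99 fragments, from 1.11 to 1.12, and XI right at 200 or more, from 0.806 to 0.798.

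Within a stretch, the part nearer the chromosome end had fewer centromere partners. The inner 30 fragments of X left, 74 to 104 from the centromere, had a ratio with centromere regions of 0.375 at 25 °C, and the outer 30 fragments had 0.298. At 37 °C these were 0.460 and 0.418, with log2 ratios of 0.30 (0.16 to 0.43) and 0.49 (0.33 to 0.64). In X right the inner and outer 20 fragments had 0.523 and 0.453 at 25 °C, with log2 ratios of 0.18 (0.045 to 0.32) and 0.36 (0.21 to 0.50). In XI left the inner 44 fragments had 0.354 and the outer 45 had 0.314, with log2 ratios of 0.42 and 0.45. XI right had 0.631 and 0.577 over its inner and outer 10 fragments, with log2 ratios of 0.16 (-0.0091 to 0.33) and 0.11 (-0.11 to 0.33). In each stretch the log2 intervals of the inner and outer fragments overlapped.

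Contacts with chromosome ends ran the other way along each stretch. At 25 °C the ratio with ends was 0.996 in the inner and 1.28 in the outer fragments of X left, and 0.961 and 1.22 in X right. It was 0.934 and 1.46 in XI left, and 1.33 and 1.82 in XI right. At 37 °C the outer fragments again had the higher ratio in all 4 stretches, with 0.944 and 1.24 in X left, 0.977 and 1.15 in X right, 0.966 and 1.43 in XI left, and 1.14 and 1.65 in XI right.

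Single fragments spread widely around these values because each rested on few contacts with centromere regions. The median fragment of X left had 51.5 such contacts at 25 °C and 13 at 37 °C, and that of XI right had 94.5 and 23.5. In X left the ratio of single fragments at 25 °C ran from 0.206 to 0.634 with a median of 0.319, and at 37 °C from 0.128 to 0.793 with a median of 0.423. In XI left it ran from 0.176 to 0.626 (median 0.329) at 25 °C and from 0.0764 to 0.795 (median 0.409) at 37 °C. The fragments of both temperatures overlapped in every stretch. X right had medians of 0.475 and 0.595, and XI right of 0.607 and 0.673.

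A fragment was counted as past the fold when its ratio with centromere regions differed 1.5-fold or more between temperatures, among fragments with at least 10 expected contacts in both maps. Higher at 37 °C past this fold were 15 of 59 fragments in X left, 7 of 40 in X right, 27 of 89 in XI left and 0 of 20 in XI right, against 22.9% of the 4253 fragments tested genome-wide. Lower past the fold were 3, 2, 1 and 0, against 4.37%. The shares of X left, X right and XI left were near the background, and XI right, with 20 fragments, had none. Among the 2379 fragments 60 or more from their centromere and outside the 4 stretches, 35.9% were higher past the fold, and their median log2 ratio of 0.40 compared with medians of 0.34, 0.22, 0.36 and 0.11 in X left, X right, XI left and XI right. With outer fragments as partners, defined as 100 or more from the centromere and outside chromosome ends, no fragment of the 4 stretches was past the fold in either direction, against 1.99% higher and 0.0467% lower genome-wide.

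Other arms were described over the same distances from the centromere, leaving out chromosome ends and arms with fewer than 20 such fragments. The stretches themselves kept their fragments of chromosome ends, 1 in X left and 4 in XI left. Arms of XI were among the other arms for X, and arms of X among those for XI. With centromere regions the log2 ratio of 37 °C over 25 °C was positive for every one of the other arms with all fragments kept, so the higher centromere ratio was not particular to X and XI. X left, with 0.39, had 13 of 16 other arms above it, and these arms ran from 0.32 to 0.62 with a median of 0.45. XI left, with 0.43, had 11 of 17 above it (0.35 to 0.61, median 0.51). X right, with 0.27, had 17 of 19 above it (0.19 to 0.66, median 0.41), and XI right, with 0.16, had 18 of 19 above it (0.097 to 0.59, median 0.35). All 4 stretches therefore lay below the median of the arms at their distances. Without raised fragments X left had 11 of 16 arms above it, X right 13 of 16 and XI left 12 of 17, and only 3 arms kept enough fragments to stand beside XI right. Of these, 2 had a positive log2 ratio and the lowest was at -0.037.

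At 25 °C the ratio of XI right with chromosome ends, 1.57, exceeded that of all 19 other arms over the same distances, which ran from 0.825 to 1.20 with a median of 0.896. Its 37 °C ratio of 1.34 also exceeded all 19, which ran from 0.869 to 1.14. Its ratio with outer fragments, 0.879 at 25 °C, was below all 19, which ran from 0.975 to 1.2496, and its 0.891 at 37 °C was again below all 19. Most of these arms are longer than that of XI right, so the same distance lies farther from their ends. The arms of nearly equal length are II left, with 97 fragments, and XIII left, with 94. Over 60 to 80 fragments from the centromere they had ratios with chromosome ends of 1.15 (1.12 to 1.19) and 1.20 (1.16 to 1.24) at 25 °C, both below the 1.57 (1.52 to 1.61) of XI right. At 37 °C they had 1.14 (1.08 to 1.19) and 1.09 (1.02 to 1.16), below the 1.34 (1.26 to 1.42) of XI right. Raised fragments were 6 of 21 in II left, 3 of 20 in XIII left and 2 of 20 in XI right, and their part in these differences was not tested.

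**Figure D2:**
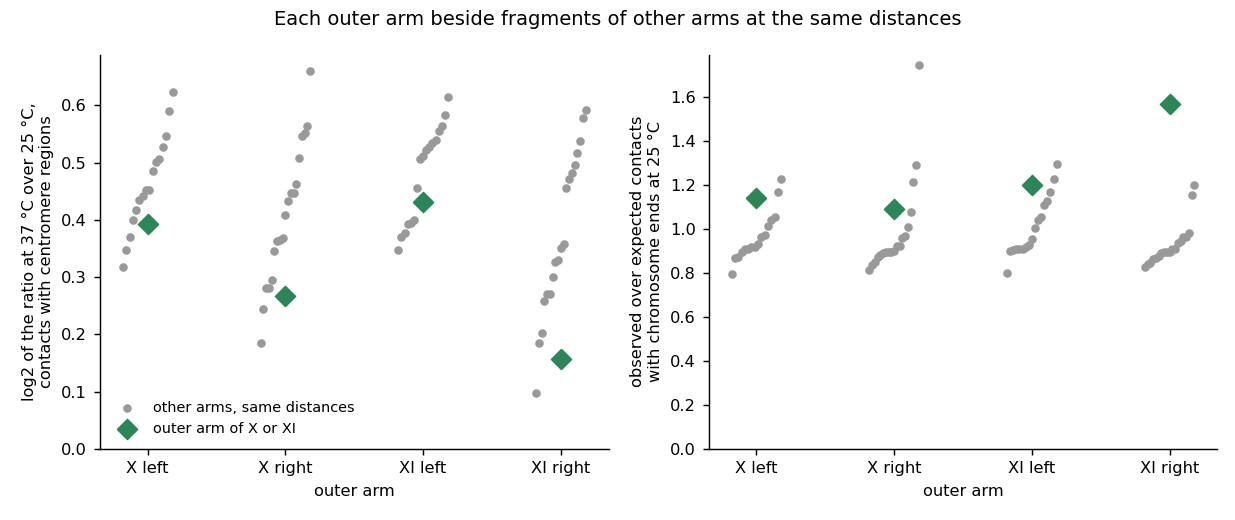
Each outer arm of X and XI (diamonds) beside the fragments of other arms at the same distances from their centromere (grey points, sorted from left to right by value), for the log2 ratio of 37 °C over 25 °C with centromere regions (left) and for the 25 °C contact ratio with chromosome ends (right). XI right stands at 0.16 on the left, under 18 of 19 other arms, and at 1.57 on the right, above all 19. The grey point at 1.74 beside X right is a stretch of the XI right arm. Grey points leave out chromosome ends, of which X left holds 1 fragment and XI left 4.

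The left arms and XI right met opposite sets of chromosomes. X left had its lowest 25 °C ratios with the small chromosomes I (0.593), VI (0.644) and III (0.779), and its highest with the large chromosomes IV and VII (1.10 each). XI left was alike, with 0.597 for I, 0.659 for VI, 0.795 for III, 1.10 for VII and 1.13 for IV. XI right showed the reverse. It had 1.38 (1.32 to 1.45) with III, 1.35 (1.27 to 1.45) with I, 1.27 with IX and 1.22 with VI, and its lowest ratios were 0.871 with IV and 0.791 (0.764 to 0.819) with XII, the chromosome that carries the ribosomal DNA. X right differed least between partners, from 0.858 with I to 1.06 with VIII.

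Between temperatures 17 of the 60 values with partner chromosomes had a log2 interval on one side of 0. The same count is not given here for other arms, so it is not a trait of these stretches. The log2 interval of 37 °C over 25 °C lay above 0 for 3 of 15 partner chromosomes of X left, 3 of X right, 4 of XI left and 1 of XI right, and below 0 for 1, 2, 1 and 2. X left met chromosome III at 0.779 and 0.881 (log2 ratio 0.18, 0.065 to 0.29), and XI left met chromosome I at 0.597 and 0.683 (0.19, 0.048 to 0.34). XI right met chromosome I at 1.35 and 1.09, a log2 ratio of -0.32 (-0.57 to -0.082), and chromosome XII at 0.791 and 0.903, a log2 ratio of 0.19 (0.088 to 0.29). These 4 cases were picked after their values were seen, and in each the ratio at 37 °C was the nearer to 1. Over all 17 values with an interval on one side of 0 this was so for 13, and in X right for 1 of 5. X right moved away from 1 with XII, from 0.916 to 0.853 (-0.10, -0.17 to -0.033), and with VIII, from 1.06 to 1.14 (0.098, 0.016 to 0.18).

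XI right also departed from the level of its distance classes. Contacts with each of the 30 arms of other chromosomes were set against the rate at which fragments of the same distance classes met on the remaining chromosomes. On this scale XI right was above 1 with all 11 arms shorter than 80 fragments at both temperatures, with a median of 1.57 and a range of 1.28 to 2.00 at 25 °C and a median of 1.48 and a range of 1.27 to 1.81 at 37 °C. The highest 25 °C values were with IX right, 2.00 (1.78 to 2.24), VIII left, 2.00 (1.83 to 2.17), I left, 1.95 (1.80 to 2.12), and III left, 1.93 (1.75 to 2.12). At 37 °C these were 1.58, 1.81, 1.46 and 1.44. With the 11 arms of 150 fragments or more the median was 0.893 at 25 °C and 0.890 at 37 °C, and the lowest 25 °C value was 0.691 (0.663 to 0.719) with XII right, the arm with the ribosomal DNA. Without raised fragments the medians with short arms were 1.58 at 25 °C and 1.67 at 37 °C, so that the order of the temperatures turned.

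A pair of arms was called past the fold when this value was at or beyond a ratio of 5 to 4, in either direction. XI right was above the fold with 12 of 30 arms at 25 °C and 12 at 37 °C, 11 of them shared, where 12.9% of the 480 pairs of whole arms in the genome were past it at 25 °C and 11% at 37 °C. It was below the fold with 2 arms at 25 °C, against 8.75%. X right was above the fold with 4 arms at 25 °C (V left, VIII left, I left and VI right, the last at 1.26) and with 2 at 37 °C. Without raised fragments these counts were 6 and 5, and for XI right 12 and 11. X left and XI left were above the fold with none, and each was below it at 25 °C with 1 arm, I right, at 0.652 (0.557 to 0.760) and 0.676 (0.597 to 0.763). At 37 °C X left was below it with 3 arms, I right (0.669), IX right (0.650) and XII left (0.777), X right with 1, I right (0.765), XI right with 1 and XI left with none, against 3.96%. Across the 30 partner arms the Spearman correlation of this value with arm length was -0.95 at 25 °C and -0.93 at 37 °C for XI right, and -0.77 and -0.51 for X right. It was 0.23 and 0.17 for X left and 0.061 and -0.075 for XI left. The 30 points share the fragments of the outer arm and the library, and short arms give the fewest contacts. A stretch also has fewer contacts than its whole arm, so the shares over pairs of whole arms are not a like comparison.

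Arms of nearly the same length as XI right leaned the same way but less. Over the same distances II left had a median of 1.27 with the 11 short arms at 25 °C, with 10 above 1, and a median of 0.938 with long arms. XIII left had medians of 1.14, with 9 of 11 above 1, and 0.974. XI right, with 1.57 and 0.893, had the widest gap of these 3 arms. At 37 °C the medians with short arms were 1.15 for II left, 1.10 for XIII left and 1.48 for XI right.

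The ends of single arms showed the same sorting. At 25 °C the ratio of XI right with the ends of the 11 short arms had a median of 2.01 and ran from 1.37 to 2.43, all above 1. With the ends of 8 arms of intermediate length the median was 1.62, and with those of 11 long arms 1.23. The highest values were 2.43 with the end of I left (193 contacts), 2.40 with III right (126 contacts) and 2.20 with VIII left (144 contacts). At 37 °C the medians were 1.69, 1.32 and 1.15, and the value was lower than at 25 °C for 21 of 30 ends. The log2 interval lay below 0 for 6 of them, namely I left, III left, IX left, IX right, IV left and XIV left, and above 0 for XIII left (0.66, 0.18 to 1.12). The largest of these differences was with IX right, from 2.02 to 1.09, a log2 ratio of -0.89 (-1.51 to -0.32) on 146 and 30 contacts. The 6 ends rested on 22 to 47 contacts each at 37 °C. Their counts keep raised fragments and are not given here for other arms, so whether they are particular to XI right was not tested. Over all chromosome ends the XI right log2 ratio was -0.12 (-0.24 to -0.0086) without raised fragments. Over the fragments below the median ratio of fitted totals it was -0.061 (-0.29 to 0.16).

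The left arms met the ends of intermediate and long arms more than those of short arms. At 25 °C X left had a median ratio of 0.858 with the ends of the 11 short arms, none above 1, and of 1.33 with those of 12 long arms, all above 1. XI left had 0.866 and 1.37, with 4 of 11 and 11 of 11 above 1. With the ends of intermediate arms X left had a median of 1.28, with 7 of 7 above 1, and XI left of 1.29, with 8 of 8. Both stretches had their lowest value with the end of I right, the shortest arm, at 0.517 and 0.486. Both had their highest with the end of IV right, the longest, at 1.42 and 1.56. At 37 °C IV right was at 1.27 in both, a log2 ratio of -0.16 (-0.45 to 0.13) in X left and of -0.30 (-0.52 to -0.081) in XI left. X right differed little between short and long arms at 25 °C, with medians of 1.07 and 1.04. Its highest median, 1.19, was with the ends of the 7 intermediate arms, all above 1. At 37 °C its medians with short, intermediate and long arms were 0.971, 1.02 and 1.03.

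Contacts between the stretches of X and those of XI exceeded the expectation from totals at 25 °C. X left and XI left shared 4059 contacts at 25 °C, a ratio of 1.23 (1.19 to 1.26), and 953 at 37 °C, a ratio of 1.17 (1.10 to 1.245). X right and XI right shared 725 contacts at 25 °C, a ratio of 1.37 (1.27 to 1.48), and 156 at 37 °C, a ratio of 1.13 (0.962 to 1.32), which gave a log2 ratio of -0.28 (-0.54 to -0.025). X right and XI left had 1.09 (1.05 to 1.14) at 25 °C and 0.979 (0.904 to 1.06) at 37 °C, a log2 ratio of -0.16 (-0.29 to -0.033) that was positive, 0.035, over the fragments below the median ratio of fitted totals. X left and XI right had 1.12 (1.04 to 1.20) and 1.00 (0.857 to 1.16). Relative to distance classes, X left with XI left was at 1.02 and 1.01, X left with XI right at 0.990 and 0.919, and X right with XI left at 0.947 and 0.882. X right with XI right was at 1.19 and 1.02. No log2 interval on this scale lay wholly on either side of 0. Contacts were spread thinly, with at most 7 contacts for a pair of fragments at 25 °C and 6 at 37 °C, and 84.4% of the pairs of X left and XI left were empty at 37 °C.

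Between temperatures few partner arms were past the same ratio of 5 to 4. On the scale relative to distance classes, no partner arm of any stretch was past it with the higher value at 37 °C, against 0.417% of pairs of whole arms genome-wide. A stretch has fewer contacts than its whole arm, so counting error weighs more in it and the genome-wide shares are not a like comparison. With the lower value at 37 °C there were 3 for XI right, 2 for X right, 1 for X left and none for XI left, against 1.04%. Those of XI right were I left (log2 ratio -0.42, -0.74 to -0.11), III left (-0.42, -0.74 to -0.11) and IX right (-0.34, -0.74 to 0.044), on 101, 106 and 69 contacts at 37 °C. Those of X right were VI right (-0.33, -0.54 to -0.13) and VIII left (-0.34, -0.59 to -0.095), and that of X left was IX right (-0.35, -0.74 to 0.018). Over the fragments below the median ratio of fitted totals both values of X right turned positive, to 0.0098 and 0.19. Without raised fragments there was 1 each for X left, X right and XI right. On the plain contact ratio the counts were 1 higher for XI left, against 0.833%, and 2 lower for XI right, I left (1.70 and 1.31) and III left (1.61 and 1.253), against 2.5%.

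Contacts between the left and right stretch of the same chromosome could not be compared between temperatures. X left and X right shared 2021 contacts at 25 °C and 913 at 37 °C, and XI left and XI right 1637 and 659. At 25 °C 69.5% of the fragment pairs of X were empty where a Poisson count at the level set by contacts between chromosomes gives 52.9%, whereas at 37 °C 70.2% were empty against 86.5%. The excess at 25 °C was smaller in XI, where 59.4% were empty against 54.5%. At 37 °C 71.9% of the pairs of XI were empty against 85.1%. The 25 °C map holds blocks without contacts within chromosomes, and whether these were removed by filters is not given in the sources used here.

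Landmark genes placed the differences along the arms. Of 55 genes listed for chromosomes X and XI, 34 fell in the 4 stretches by interpolation, and each was described by the 11 fragments around it. Near a border of a stretch these fragments reach beyond it. The ratio of the gene neighbourhoods with centromere regions was higher at 37 °C in 34 of 34, with log2 intervals above 0 in 32. Of all 4381 neighbourhoods of 11 fragments in the genome, 77.3% were higher and 60% had an interval above 0, and of the 2444 centred 60 or more from their centromere outside the stretches 98.6% and 88.1%. The median log2 ratio of the genes was 0.41, beside medians of 0.17 over all single fragments genome-wide and 0.40 over those 60 or more from their centromere outside the stretches. By stretch the medians were 0.42 over 12 genes in X left, 0.25 over 5 in X right, 0.42 over 14 in XI left and 0.14 over 3 in XI right. Without raised fragments 34 of 34 were again higher, with intervals above 0 in 14, beside 72.9% and 39% of all neighbourhoods and 95.4% and 62.1% of those 60 or more out. The ratio with outer fragments was lower at 37 °C in 28 of the 34, with intervals below 0 in 20, and these included all 12 genes in X left and all 14 in XI left by direction. Of all neighbourhoods 61.3% were lower and 41.6% had an interval below 0, and of those 60 or more out 94.2% and 68.7%. Without raised fragments 31 genes were lower, with intervals below 0 in 10, beside 59.2% and 15.8% of all neighbourhoods and 89.1% and 25.9% of those 60 or more out. Neighbouring genes share fragments, so these counts are not independent, and a gene may lie outside its 11 fragments. The ratios of a neighbourhood with centromere regions and with outer fragments are also tied through its total contacts.

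In X left the widest differences among the listed genes were those of OPT1 and NUC1, near the chromosome end. Their neighbourhoods share most of their fragments and reach beyond the outer border of the stretch, so they are not separate observations. The neighbourhood of OPT1, an oligopeptide transporter gene (chromosome X, 33850 to 36249 in R64), had ratios of 0.266 and 0.453 with centromere regions at 25 °C and 37 °C, on 502 and 142 contacts, a log2 ratio of 0.77 (0.49 to 1.04). That of NUC1, which encodes the mitochondrial nuclease (40194 to 41183), overlaps it and had 0.269 and 0.433, a log2 ratio of 0.69 (0.40 to 0.97). The lowest were HSP150 and INO1. HSP150, a secreted cell wall protein gene induced by heat (120449 to 121690), had 0.332 and 0.392 (0.24, 0.012 to 0.46). INO1, which encodes inositol-3-phosphate synthase and is known to be recruited to the nuclear pore when active (134332 to 135933), had 0.345 and 0.419 (0.28, 0.052 to 0.50) with centromere regions and 1.24 and 1.21 with outer fragments. HSP150 was the only heat shock gene of the list inside the stretches, and its value was the lowest of the 12 genes in X left with all fragments kept. Without raised fragments OPT1 had 0.55 (0.25 to 0.85), NUC1 0.46 (0.15 to 0.76), INO1 0.28 (0.0031 to 0.56) and HSP150 0.25 (-0.035 to 0.52). No fragment around OPT1 or NUC1 was raised, so for these genes only the partners and the fitted totals differed. SWE1, for a kinase that delays mitosis, was then the lowest, going from 0.38 to 0.11 (-0.23 to 0.42), and ELO1, CDC6, RPS22A and RPL39 were also below HSP150.

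In X right the highest log2 ratios were those of HOM6 and MET5. HOM6, for homoserine dehydrogenase (689445 to 690524), had 0.436 and 0.588 (0.43, 0.24 to 0.62), but -1.001 over the fragments below the median ratio of fitted totals. That setting left the whole X right stretch 137 contacts with centromere regions at 37 °C, so the HOM6 value rests on few contacts. MET5, for a subunit of sulfite reductase (678957 to 683285), had 0.446 and 0.601 (0.43, 0.24 to 0.62). The lowest were RPL43B, a ribosomal protein gene (608305 to 608858), with 0.526 and 0.604 (0.20, 0.023 to 0.38), and SOD1, for the copper-zinc superoxide dismutase (622550 to 623014), with 0.512 and 0.592 (0.21, 0.010 to 0.40). Without raised fragments HOM6 had 0.37, MET5 0.35, RPL43B 0.23 and SOD1 0.14 (-0.098 to 0.37).

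In XI left the 14 genes lay close together in value. TPK3, a catalytic subunit of protein kinase A (chromosome XI, 134509 to 135705), had 0.314 and 0.454 (0.53, 0.31 to 0.75). FAS1, for the beta subunit of fatty acid synthase (100671 to 106826), had 0.320 and 0.460 (0.53, 0.31 to 0.74) but -1.07 over the fragments below the median ratio of fitted totals. There the whole XI left stretch had 195 contacts with centromere regions at 37 °C, so this FAS1 value rests on few contacts. The lowest were URA1, for dihydroorotate dehydrogenase (25215 to 26159), with 0.370 and 0.455 (0.30, 0.080 to 0.51), and APE1, for a vacuolar aminopeptidase (246138 to 247682), with 0.433 and 0.560 (0.37, 0.14 to 0.59). The URA1 value was -0.079 when its neighbourhood was narrowed to 5 fragments. Raised fragments were 3 of the 11 around FAS1. Without raised fragments, here and among the partners, FAS1 had 0.25 (-0.074 to 0.57) and was no longer among the highest. TPK3 then had 0.44 (0.14 to 0.73), URA1 0.14 (-0.16 to 0.42) and APE1 0.22 (-0.082 to 0.52).

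In XI right all 3 genes of the list had small differences. MTD1, for a methylenetetrahydrofolate dehydrogenase (590395 to 591357), had 0.625 and 0.728 (0.22, 0.043 to 0.39). NUP133, for a subunit of the nuclear pore complex (592825 to 596298), had 0.636 and 0.701 (0.14, -0.031 to 0.31). RPL40B, which encodes ubiquitin fused to a ribosomal protein (617996 to 618750), had 0.586 and 0.621 (0.084, -0.13 to 0.29). Their ratios with outer fragments were below 1 at both temperatures, at 0.875 and 0.889 for MTD1 and 0.879 and 0.882 for RPL40B. Without raised fragments the log2 ratios with centromere regions were 0.17 (-0.068 to 0.41) for MTD1, 0.042 for NUP133 and 0.054 for RPL40B.

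**Figure D3:**
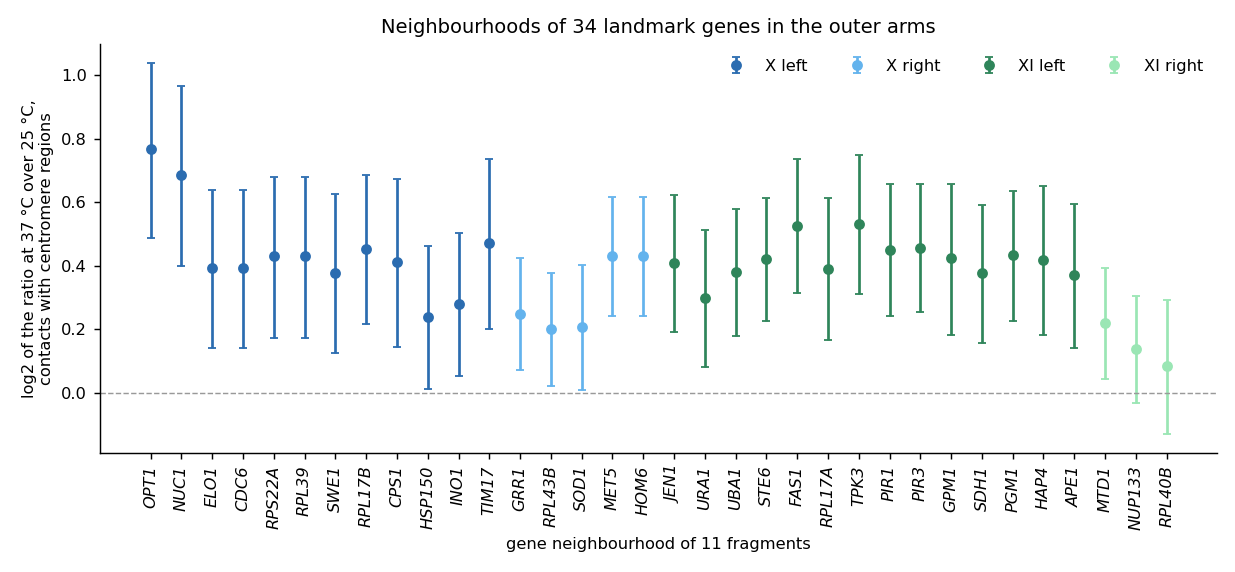
Log2 ratio of 37 °C over 25 °C for contacts with centromere regions (vertical axis, exact 95% binomial intervals) of the 11 fragments around each of 34 landmark genes, ordered along each stretch from the left chromosome end (horizontal axis). All 34 points lie above 0, from 0.084 for RPL40B to 0.77 for OPT1, and the intervals of NUP133 and RPL40B in XI right reach below 0.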

How the data were processed

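The deposited values are raw counts of contacts between pairs of restriction fragments, which the authors made by aligning reads with Bowtie 1.1.0 to R64, per the submitters' processing notes, and by combining the replicates of each temperature into 1 square matrix without fragment names. Their later filters were not given in the sources used here. Chromosomes were recovered by segmentation of contact counts, centromeres from the peaks of contacts between them, and fragments of both maps were paired in order (4382 matched, 6 and 1 unmatched, none with more than 11 contacts). Expected contacts were products of fragment factors from iterative proportional fitting over pairs of different chromosomes, after the lowest 2% of fragments were left out (4282 kept). Depth was 5920062 and 1937970 contacts. Genes named were the 2 highest and 2 lowest log2 ratios of the list per stretch, INO1 and heat shock genes; 1 gene of the list is not reported here. The members, lists and tests were chosen with earlier results of these data known; the settings of segmentation and alignment, the length groups of partner arms, the ends of single arms, the arms of like length and the counts over all neighbourhoods were chosen after seeing the data. Scripts (Python 3.11.15, numpy 2.4.6, scipy 1.17.1, pandas 2.3.3) were tested on simulated data.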

Additional observations from a re-analysis of the deposited data

How the results depend on the processing

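No paired analysis was possible because each deposited map combines its replicates; for the same reason leaving out a replicate could not be run. The alternatives were those listed for fragment filters, raised fragments, a cap of 5 contacts per pair, shortened arms, a product of totals, a centromere region of 10 kb, a thinned 25 °C map and each partner chromosome left out. The log2 ratio with centromere regions stayed positive in all 4 stretches under all of these, with lowest and highest values on leaving out a partner chromosome of 0.36 and 0.43 (X left), 0.23 and 0.29 (X right), 0.41 and 0.46 (XI left) and 0.10 and 0.19 (XI right). It left its counting interval without raised fragments in X left (0.28) and XI left (0.31), with the cap in X left (0.26), X right (0.13), XI left (0.30) and XI right (0.017), and over fragments below the median ratio of fitted totals in X right (0.099), XI left (0.23) and XI right (0.30). With chromosome ends the XI right log2 ratio was -0.12 without raised fragments and -0.061 below the median, and below the median X left turned to 0.12 and X right to 0.030. Between stretches, the 25 °C ratio below the median was 1.27 (X left and XI left), 1.255 (X left and XI right) and 1.19 (X right and XI right), and with arms shortened by 5 fragments X left and XI right had 1.04. Other log2 ratios that turned without raised fragments or below the median were XI left at 50 to 99 (0.0094 and 0.0082), X left at 20 to 49 (-0.044) and 100 to 200 (0.0088), X left with chromosome I (-0.017), XI left with chromosome IX (-0.0091), X right and XI left (0.035), and, relative to distance classes, X left with XIII right (0.020) and X right with II right (-0.0055), VI right (0.0098) and VIII left (0.19). Gene neighbourhoods turned below the median for ELO1 and CDC6 (-0.37), HOM6 (-1.001), JEN1 and URA1 (-0.32), FAS1 and RPL17A (-1.07), PIR1 and PIR3 (-0.20) and GPM1 (-0.088), and with 5 fragments for ELO1 and CDC6 (-0.036) and URA1 (-0.079). Without raised fragments, genes with an interval above 0 went from 32 to 14 with centromere regions, those below 0 with outer fragments from 20 to 10, and partner arms of X right above the fold at 37 °C from 2 to 5. These alternatives leave fewer fragments or contacts, and the cause of each move was not tested. The cap of 5 contacts was the same for both maps although their depth differed. Depth limits the 37 °C map, in which a median fragment of X left had 13 contacts with centromere regions.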
